A study of Mus musculus with 11 samples.

Results

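The genes described here are the chains of the major histocompatibility complex (MHC) class II molecules of the mouse, the proteins that load them with peptide, and Ciita, the transactivator that switches their genes on. They were chosen by name, as the files spell them: H2-AA, H2-AB1, H2-EB1, H2-EB2, H2-DMA, H2-DMB1, H2-DMB2, H2-OA, CD74 and CIITA, written in the following as H2-Aa, Cd74 and so on. Of these 10 genes, 9 were represented on the array by 12 probes, out of 18138 gene names on the array in all, and H2-Eb2 had no probe. H2-Ab1 had 3 probes, Cd74 had 2 and each of the other 7 genes had 1. All 12 probes passed the filter on dim probes, which asked for a signal above background (detection p under 0.05) on at least 3 of 8 arrays. The study measured RNA of the terminal ileum, the last stretch of the small intestine, from naive mice aged 8 to 12 weeks on Illumina MouseRef-8 v2.0 bead arrays, each mouse on an array of its own. SKG mice are BALB/c mice with a spontaneous mutation of Zap70, the kinase that relays signals of the T cell receptor, and the BALBc group is the control strain without that mutation. The values come from SKG replicates 4 to 8 and BALBc replicate 3, which the labels place in batch 3, and from BALBc replicates 1 and 2, which they place in batch 2. SKG replicates 1 to 3 of batch 1 were not used here, because their signals did not line up with the probe names.

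Class II molecules display peptides from proteins taken up by a cell to CD4+ T cells. An alpha and a beta chain (H2-Aa with H2-Ab1, H2-Ea with H2-Eb1) pair in the endoplasmic reticulum around the invariant chain, Cd74, which blocks the peptide groove and directs the complex to endosomes. There H2-DM removes the last fragment of Cd74 and lets peptides bind, and H2-DO restrains H2-DM. B cells, dendritic cells and macrophages make class II molecules at all times, and epithelial cells of the small intestine can also carry them. Ciita does not bind DNA itself: it is recruited to the X and Y boxes of class II promoters by RFX, CREB and NF-Y, and its own gene is induced by interferon-gamma.

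The normalised signal of all 12 probes was lower in SKG than in BALBc ileum in the fit over the 8 arrays, whereas a difference below 0 was found for 49.0% of the 13775 probes tested. The median difference of the 12 probes was −1.72 on the log2 scale, against 0.01 over all probes. Within batch 3, where 5 SKG animals stood against the 1 BALBc animal, all 12 differences were again below 0 (48.6% of all probes), with a median of −1.48 against 0.02. No member passed the threshold in that fit over the 8 arrays (limma with batch as a random block, Benjamini-Hochberg adjusted p under 0.05), in which 0.254% of all probes were called lower. Without adjustment 10 of the 12 probes had a p under 0.05 and a lower signal in SKG, compared with 5.92% of all probes. In 9 of the 12 probes every SKG animal lay below every BALBc animal (5.25% of all probes), and in 11 of the 12 every SKG animal lay below BALBc replicate 3 (21.3%). An exact two-sided permutation test over the 8 arrays, which cannot give a p below 0.0179 here, gave an unadjusted p under 0.05 and a lower mean in SKG for 9 of the 12 probes (6.82% of all probes). That test takes no account of batch, so it mixes the strain difference with the gap between batches. The probes are measured in the same animals and are not independent of one another.

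**Figure D1:**
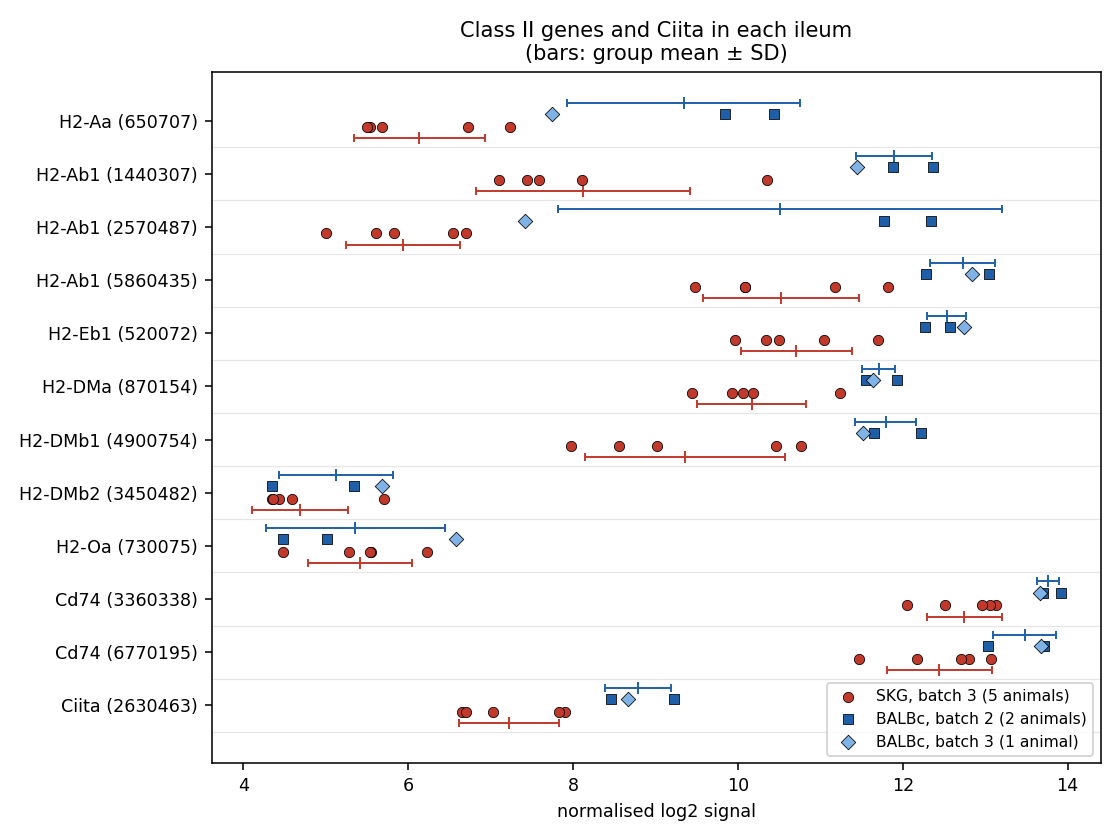
Normalised log2 signal (x axis) of each of the 12 probes (rows, probe number in brackets) in each animal, with red circles for SKG, dark squares for the BALBc animals of batch 2 and light diamonds for the BALBc animal of batch 3; bars show the mean ± SD of 5 SKG and 3 BALBc animals. In 9 of the 12 rows all SKG circles lie left of all BALBc symbols, and for H2-Aa and the H2-Ab1 probe 2570487 the light diamond lies between the SKG circles and the dark squares.

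Whether a member was called depended on how batch was treated and on single animals. Without a batch term 8 of the 12 probes were called lower (1.98% of all probes). With batch as a fixed block, and within batch 3 alone, none was (0.312% and 0.189% of all probes). Without BALBc replicate 3, when batch and strain cannot be told apart, 9 of 11 probes tested were called (16.2%). Without SKG replicate 5 the H2-Eb1 probe and the H2-Ab1 probe 1440307 were called, 2 of 11 tested (0.206%), and without SKG replicate 6 the H2-Eb1 probe alone was called, 1 of 12 (2.36%). Between 12445 and 14076 of the 25697 probes were above background on an array. Median raw signals were 187.5 and 163.0 on the batch 2 arrays and 98.5 to 105.6 on those of batch 3. The batch 2 arrays had rank correlations of 0.846 to 0.885 with the SKG arrays across probes, and BALBc replicate 3 had 0.941 to 0.949. SKG replicate 6 was the least like its group, with a highest rank correlation to another SKG array of 0.943 against 0.976 to 0.981 for the others. Fabp6, the ileal bile acid binding protein, was above background on all 8 arrays (normalised log2 signal 12.64 to 13.66). In whole tissue, fewer class II-bearing cells and less class II RNA per cell cannot be told apart.

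Ciita was measured by 1 probe. Its normalised log2 signal was 6.65, 7.90, 7.83, 6.70 and 7.03 in SKG replicates 4 to 8, and 9.23, 8.46 and 8.67 in BALBc replicates 1 to 3. All SKG animals lay below all BALBc animals, and the highest SKG animal, replicate 5, came within 0.77 of BALBc replicate 3. The group means were 7.22 ± 0.61 (SD, n = 5) and 8.78 ± 0.40 (SD, n = 3). The fitted difference was −1.49 (SE 0.44), or 2.81-fold on the normalised scale, which understates the change of dim probes, and did not pass (limma adjusted p = 0.179). Within batch 3 it was −1.44, and with the values of the authors' deposited table −0.74. Raw signals were 131.3 to 224.7 in SKG and 337.5 in BALBc replicate 3, and 834.9 and 1482.5 in the batch 2 animals, whose arrays were brighter as a whole.

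Promoter windows of 7 of the 10 genes were held by the RefSeq table of assembly GRCm38.p6, each with 250 bases before and 50 after a transcription start. The 150 bases before the start are printed for 5 measured genes, which do not all hold the same exact matches. They come from the reference strain and not from BALB/c or SKG mice. Capitals mark exact matches to the core of the Y box (TGATTGG), to the end of the X box (AACNGATG) and, in H2-Aa, to the cyclic AMP response element (TGACGTCA), searched on both strands with no overlap among the matches found.
H2-Aa, chr17:34287824-34287973, minus strand: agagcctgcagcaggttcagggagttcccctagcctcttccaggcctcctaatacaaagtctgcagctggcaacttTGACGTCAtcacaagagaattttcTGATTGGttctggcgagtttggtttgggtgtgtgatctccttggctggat
H2-Eb1, chr17:34305717-34305866, plus strand: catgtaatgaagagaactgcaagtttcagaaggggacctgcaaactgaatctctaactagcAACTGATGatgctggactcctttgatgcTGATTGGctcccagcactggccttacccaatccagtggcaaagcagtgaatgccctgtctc
H2-DMb1, chr17:34153041-34153190, plus strand: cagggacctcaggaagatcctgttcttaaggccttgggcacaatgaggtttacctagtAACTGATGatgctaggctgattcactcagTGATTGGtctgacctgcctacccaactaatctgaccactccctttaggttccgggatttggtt
H2-DMb2, chr17:34145099-34145248, plus strand: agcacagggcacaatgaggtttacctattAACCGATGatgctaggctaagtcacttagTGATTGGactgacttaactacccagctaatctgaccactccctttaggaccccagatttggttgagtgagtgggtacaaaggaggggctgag
H2-Oa, chr17:34092229-34092378, plus strand: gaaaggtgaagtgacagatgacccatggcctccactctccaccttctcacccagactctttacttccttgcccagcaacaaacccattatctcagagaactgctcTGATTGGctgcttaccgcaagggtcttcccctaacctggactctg

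The Y box core was found in the windows of 6 of the 7 genes, and in 7.82% of the 32851 windows of the table. The X box end was found in 4 of them (H2-Eb1, H2-Eb2, H2-DMb1 and H2-DMb2) and in 2.32% of all windows. Between the X match and the Y match lay 20 bases in H2-Eb1 and H2-Eb2 and 21 bases in H2-DMb1 and H2-DMb2. The cyclic AMP response element stood in the H2-Aa window and in 1.79% of all windows. Both windows held for H2-DMa belong to starts inside the annotated gene, more than 2 kilobases from its first base, and neither had a match, which says nothing of other starts. The starts used for H2-DMb2 and H2-Eb2 also lie inside their annotated genes, that of H2-DMb2 more than 2 kilobases from the first base. A match is a description of the letters and not a binding site shown by these data. A window without an exact match is not thereby shown to lack the box.

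**Figure D2:**
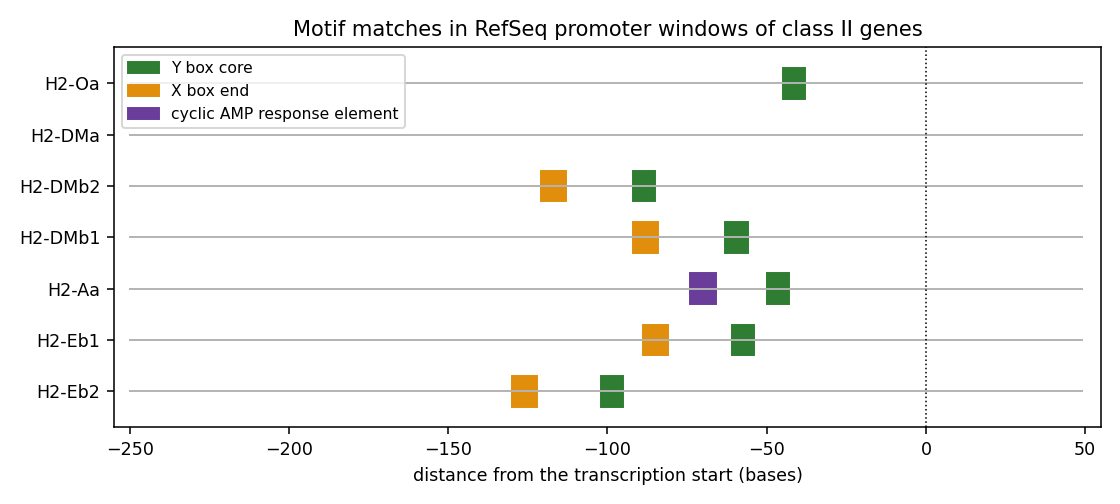
Position of each motif match (coloured boxes) relative to the transcription start (x axis, bases; 0 is the start) in the RefSeq window of 7 class II genes (rows). X and Y matches are 20 or 21 bases apart in the 4 genes that have both, and the 2 windows held for H2-DMa, at starts inside the gene, have no match. The starts of H2-DMb2 and H2-Eb2 also lie inside their genes.

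The classical chains differed by −3.49 to −1.95 in the fit over the 8 arrays. H2-Aa encodes the alpha chain of the I-A molecule, and its normalised log2 signal was 5.53, 7.23, 6.73, 5.68 and 5.51 in SKG replicates 4 to 8. In BALBc it was 10.44 and 9.84 in the animals of batch 2 and 7.75 in the animal of batch 3. The SKG animals lay below all BALBc animals, but the BALBc animals themselves were 2.39 apart between the batches, more than the 1.72 that separated the highest and lowest SKG animal. The fitted difference was −2.23 (SE 0.63, limma adjusted p = 0.164). Within batch 3 it was −1.61, and without BALBc replicate 3 it was −4.02 (adjusted p = 0.000205). Raw signals of H2-Aa were 105.2 to 169.3 in SKG, 216.9 in BALBc replicate 3, and 3173.1 and 1846.2 in the batch 2 animals. Within batch 3 the H2-Aa probe was thus dim in both strains, and small raw gaps there become large log2 gaps.

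H2-Ab1, the beta chain partner of H2-Aa, was measured by 3 probes that did not give the same picture. Probe 5860435, the brightest over the 8 arrays, gave 9.48, 11.82, 11.18, 10.08 and 10.08 in SKG replicates 4 to 8 and 13.04, 12.28 and 12.84 in BALBc replicates 1 to 3. The groups did not overlap, and the BALBc animal of batch 3 lay between those of batch 2. Its difference was −2.27 (SE 0.61, limma adjusted p = 0.142), and −2.32 within batch 3. Probe 1440307 gave 7.11, 10.35, 7.44, 7.59 and 8.11 in SKG and 12.36, 11.88 and 11.44 in BALBc. Apart from SKG replicate 5, the SKG animals were more than 3 log2 units below every BALBc animal, and the difference of −3.49 (SE 0.80) was the largest of the 12 members in the fit over the 8 arrays, with a limma adjusted p of 0.0900 (0.00210 without SKG replicate 5). With the values of the authors' deposited table the difference was −1.49 for this probe and −1.75 for probe 5860435, the reverse order.

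The third H2-Ab1 probe, 2570487, split the BALBc animals by batch. It gave 12.34 and 11.77 in the animals of batch 2, 7.42 in the animal of batch 3 and 5.01, 6.70, 6.54, 5.61 and 5.83 in the SKG animals. The BALBc difference between batches, batch 3 minus batch 2, was −4.63. Of the probes tested, 0.0436% had a value at or below it, and for the other 2 H2-Ab1 probes it was −0.68 and 0.18. In raw signal the batch 2 animals had 10690.4 and 5960.6, BALBc replicate 3 had 190.1 and the SKG animals 99.6 to 142.3, so that within batch 3 this probe was dim in both strains. Its fitted difference of −2.67 (SE 0.83, limma adjusted p = 0.202) was −1.48 within batch 3 and −6.13 without BALBc replicate 3. In the authors' deposited table of log2 values, whose centring no source used here gives, BALBc replicate 3 stood at 0.09 for this probe, inside the range of the SKG animals (0.03 to 0.17). With the values of that table the fitted difference of probe 2570487 was −0.74. In that table BALBc replicate 3 stood at 0.96 for probe 1440307 and 1.48 for probe 5860435, above all 5 SKG animals. For H2-Aa the shift between batches (−2.39) was at or above that of 3.77% of the probes, and for the remaining 10 probes it lay between −0.68 and 1.83. What set these probes apart between the batches was not tested, and their positions in the transcripts were not used here.

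H2-Eb1 is the beta chain of I-E. Its probe gave 9.97, 11.70, 11.04, 10.34 and 10.50 in SKG replicates 4 to 8 and 12.58, 12.27 and 12.74 in BALBc replicates 1 to 3. The BALBc animals did not split by batch, and the highest SKG animal, replicate 5, lay below all of them. The means were 10.71 ± 0.67 (SD, n = 5) and 12.53 ± 0.24 (SD, n = 3), and the fitted difference was −1.95 (SE 0.45), or 3.86-fold, with a limma adjusted p of 0.0911. It was −2.03 within batch 3 and −2.17 to −1.71 when 1 animal at a time was left out. The adjusted p was 0.0342 without SKG replicate 5 and 0.0384 without SKG replicate 6. H2-Ea, the alpha chain that pairs with H2-Eb1, is not among the 10 genes and was measured in the list of loading genes: it gave 11.37, 12.57, 12.08, 11.90 and 11.86 in SKG and 13.98, 13.16 and 13.02 in BALBc. Its groups did not overlap either, and the difference was −1.20 (SE 0.38, limma adjusted p = 0.203).

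Cd74, the invariant chain, differed by about 1 log2 unit. Its probe 3360338 gave 12.05, 13.13, 13.06, 12.96 and 12.52 in SKG replicates 4 to 8 and 13.70, 13.92 and 13.67 in BALBc replicates 1 to 3. The groups did not overlap, with a difference of −0.96 (SE 0.34, limma adjusted p = 0.251), or 1.95-fold. The second probe, 6770195, differed by −1.16 (SE 0.45, adjusted p = 0.303), and there SKG replicate 5 (13.07) lay just above BALBc replicate 1 (13.04). Within batch 3 both probes of SKG animals were below BALBc replicate 3, by −0.93 and −1.23 on average. Raw signals of the first probe were 16306.4 and 15664.5 in the batch 2 animals, whose arrays reached 18716.3 and 16211.9 at most. Whether the upper end of the scanner's range limited the Cd74 difference was not tested.

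H2-DM is a pair of H2-DMa with H2-DMb1 or H2-DMb2. H2-DMa gave 9.44, 11.24, 10.19, 10.06 and 9.93 in SKG replicates 4 to 8 and 11.93, 11.55 and 11.64 in BALBc replicates 1 to 3. Its groups did not overlap, and the difference was −1.50 (SE 0.44, limma adjusted p = 0.182), and −1.47 within batch 3. H2-DMb1 gave 7.97, 10.77, 10.47, 9.02 and 8.56 in SKG and 12.22, 11.65 and 11.51 in BALBc. Its difference was −2.26 (SE 0.75, adjusted p = 0.223). The SKG animals spread over 2.79 log2 units in H2-DMb1, so that replicates 5 and 6 were nearer to BALBc replicate 3 than to SKG replicate 4.

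H2-DMb2 and H2-Oa, the alpha chain of H2-DO, had dim probes that bear little comparison. The H2-DMb2 probe was above background on 1 SKG and 2 BALBc arrays, with raw signals of 91.7 to 114.5 in SKG and 116.4 in BALBc replicate 3. SKG replicate 5 (5.71) lay just above BALBc replicate 3 (5.68), and the other SKG animals lay between 4.34 and 4.59. The difference of −0.78 (SE 0.46, limma adjusted p = 0.516) was thus carried by few arrays. H2-Oa was above background on 4 SKG and 2 BALBc arrays and gave 4.48, 5.28, 6.23, 5.55 and 5.54 in SKG against 4.48, 5.02 and 6.58 in BALBc. Its difference of −0.69 (SE 0.51, adjusted p = 0.615) was −1.16 within batch 3, 0.06 with no batch term and 0.68 without BALBc replicate 3, and so had no settled direction.

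**Figure D3:**
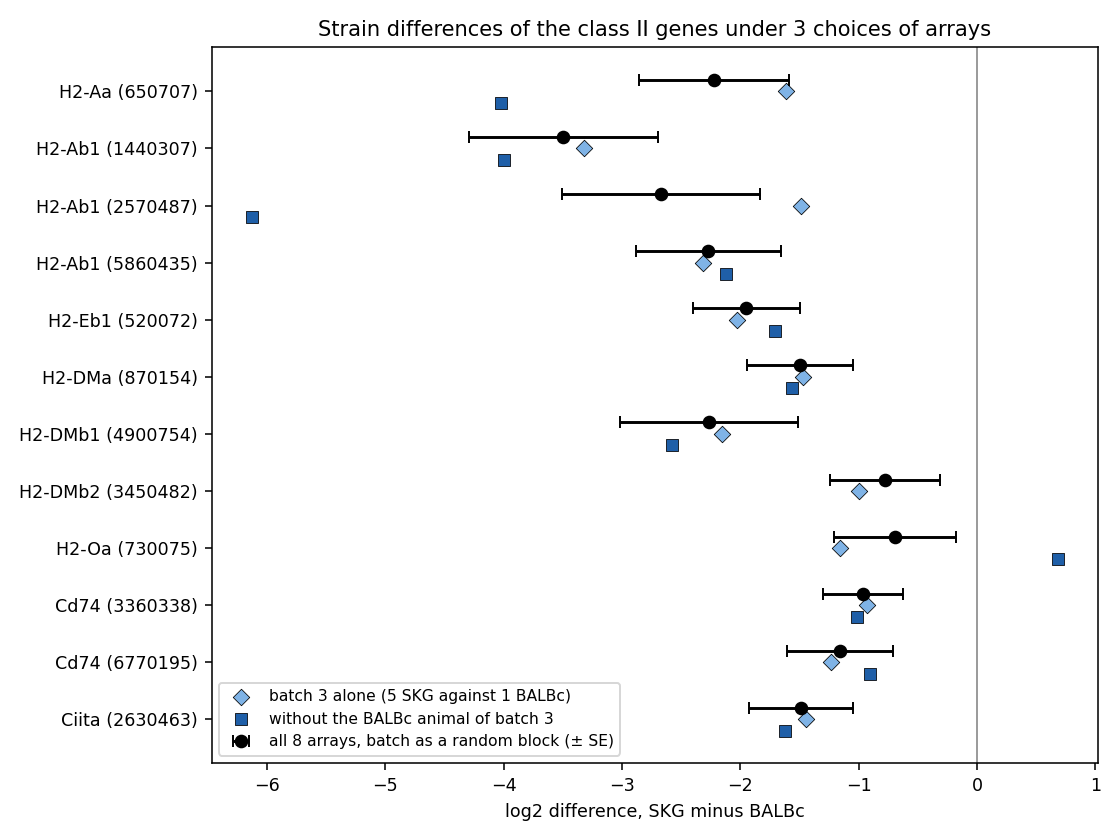
Log2 difference, SKG minus BALBc (x axis), of each probe (rows) under 3 choices of arrays: all 8 arrays with batch as a random block (black, ± SE), batch 3 alone (light diamonds) and without the BALBc animal of batch 3 (dark squares, not available for H2-DMb2, which then failed the filter). The symbols of H2-Eb1, H2-DMa, Cd74 and Ciita lie close together, those of H2-Aa and the H2-Ab1 probe 2570487 lie far apart, and H2-Oa crosses 0.

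The order of the SKG animals was alike in most members. SKG replicate 5 had the highest signal of the 5 SKG animals in 11 of the 12 probes (12.7% of all probes), with H2-Oa the exception, and SKG replicate 4 had the lowest in 11 of the 12 (17.2% of all probes), with H2-Aa the exception, where replicate 8 was slightly lower. SKG replicate 6 was among the 2 highest in 10 of the 12 probes, against 45.6% of all probes. The highest SKG animal exceeded the lowest 2.11-fold (Cd74 probe 3360338) to 9.45-fold (H2-Ab1 probe 1440307). The standard error over the beads of a probe on an array was 2.18% to 8.56% of its raw signal, which covers the measurement on 1 array and not the variation between animals or arrays. The order of the animals rests on 1 array each.

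**Figure D4:**
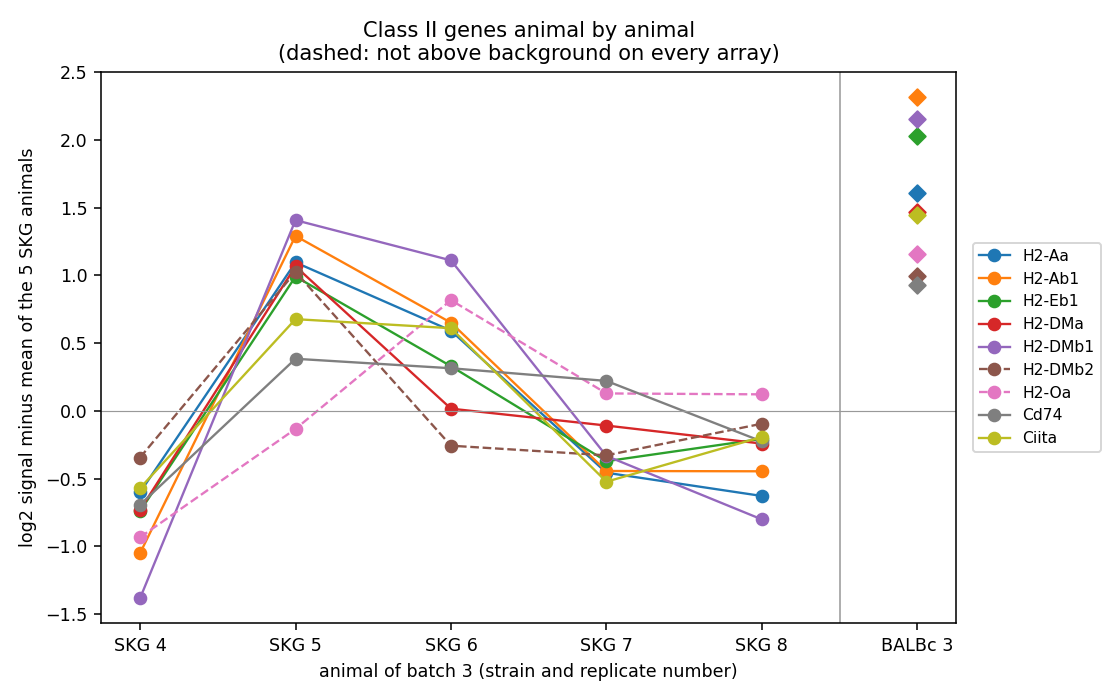
Normalised log2 signal of each gene minus its mean over the 5 SKG animals (y axis) in the 6 animals of batch 3 (x axis; lines join the values of a gene and imply no order of animals), with 1 probe per gene. SKG replicate 4 is at or near the bottom and replicate 5 at the top for most genes, and the BALBc diamonds lie above the SKG mean for all 9 genes.

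Over the 6 arrays of batch 3, each other gene was set against H2-Aa (8 relations, exact permutation p, two-sided, Benjamini-Hochberg adjusted over the 8). These arrays hold 5 SKG animals and 1 BALBc animal, so r and its p take in the strain difference as well as the variation among SKG animals. Gng11, which is no member, reached r of 0.970 with H2-Aa on these arrays. The share of all probes with such values was not counted. For H2-Ab1 Pearson's r was 0.981 (adjusted exact p = 0.0111) and Spearman's rho 0.943 (adjusted exact p = 0.0333). For Ciita r was 0.967 (adjusted exact p = 0.0156) and rho 0.829 (adjusted exact p = 0.0778). The values of r were 0.974 for H2-DMb1, 0.958 for H2-Eb1 and 0.931 for H2-DMa (adjusted exact p = 0.0111 for each), with rho of 0.943, 0.829 and 0.943 (adjusted exact p = 0.0333, 0.0778 and 0.0333). They were 0.860 for Cd74 (rho 0.943) and 0.853 for H2-DMb2 (rho 0.6), with adjusted exact p of 0.0204 and 0.0365 for r and of 0.0333 and 0.276 for rho. H2-Oa gave r of 0.652 and rho of 0.543 (adjusted exact p = 0.165 and 0.297). BALBc replicate 3 and SKG replicate 5 lay farthest from the median of H2-Aa. Without them r over the remaining 4 SKG animals was 0.946 for H2-DMb1, 0.927 for H2-Ab1, 0.922 for Ciita and 0.862 for H2-Eb1. It was 0.750 for H2-Oa, 0.667 for Cd74, 0.629 for H2-DMa and −0.08 for H2-DMb2, whose relation therefore rested on those 2 animals. Without SKG replicate 6, r over the remaining 5 arrays was 0.651 to 0.983, and with so few arrays no adjusted exact p was under 0.05 (0.0667 to 0.275). Over all 8 arrays r with H2-Aa was −0.262 for H2-Oa, 0.289 for H2-DMb2 and 0.864 to 0.914 for the other genes. The batch 2 arrays form a cluster of their own, so those values take in the gap between batches and are not read further.

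The other genes of the pathway had medians nearer to 0 than the members. Among 15 genes of class II loading and surface turnover that were tested, 9 were lower in SKG, none was called (limma), and the median difference was −0.21. Besides H2-Ea, the smallest p-values there belonged to Ctsd, an endosomal protease, at −0.87 (adjusted p = 0.324) and Cd63, a protein of late endosomes, at 0.58 (adjusted p = 0.347). Among 19 genes of class II transcription, 10 were lower, none was called, and the median was −0.0012. Among the smallest p-values there were those of Irf8 (−1.31, adjusted p = 0.163) and Nlrc5, the class I counterpart of Ciita (−1.52, adjusted p = 0.213). The subunits of the factors that bind the X and Y boxes are named here for that role, with their values already seen: Rfxap differed by −0.26, Nfyb by 0.08 and Nfyc by 0.09 (adjusted p 0.718, 0.919 and 0.914). Creb1 differed by 0.08 (adjusted p = 0.945), Rfxank was above background on 4 SKG arrays and on no BALBc array (fitted difference 0.34, adjusted p = 0.699), and Rfx5 and Nfya were too dim to be tested. Irf1, Socs1 and Nlrc5 are also in the list of interferon-gamma induced genes.

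The interferon-gamma list was lower in 16 of its 17 tested members, with a median of −0.996 and of −0.85 within batch 3. Cxcl9, a chemokine that draws T cells, fell by 1.48 (SE 0.22, limma adjusted p = 0.0136), and was the only member of the list called. It gave 6.51 to 6.79 in the SKG animals and 8.06 to 8.21 in the BALBc animals, with the BALBc animal of batch 3 between those of batch 2. Gbp2, an interferon-induced GTPase, differed by −1.24 (adjusted p = 0.0649) and Tap1, a peptide transporter of the class I pathway, by −1.30 (adjusted p = 0.135). The summed normalised signal of the list was 11230 to 15040 in SKG and 18520 to 28640 in BALBc, without overlap. Among SKG animals the sum was highest in replicate 5, as for most class II members. The lowest sum was that of replicate 8, and replicate 4, lowest in most class II members, had 12750. Sums of the class I presentation list and of the class II loading list were also highest in replicate 5. Bright genes weigh most in such a sum. Gene by gene, every SKG animal lay below every BALBc animal in 4 of the 17 (5.25% of all probes). Of 13 class I presentation genes 11 were lower (median −0.36) and none was called, with the smallest p-values for Pdia3, a chaperone of the loading complex, which was higher (2.00, adjusted p = 0.0911), Tap1 and Psmb8 (−1.37, adjusted p = 0.167), a subunit of the immunoproteasome. Of 18 genes that lie beside the class II genes on chromosome 17, 13 were lower (median −0.14) and none was called, with Tap1, Psmb8 and Btnl2 (0.86, adjusted p = 0.263) first by p. The lists share genes such as Tap1 and Psmb8, which belong to 3 of them.

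**Figure D5:**
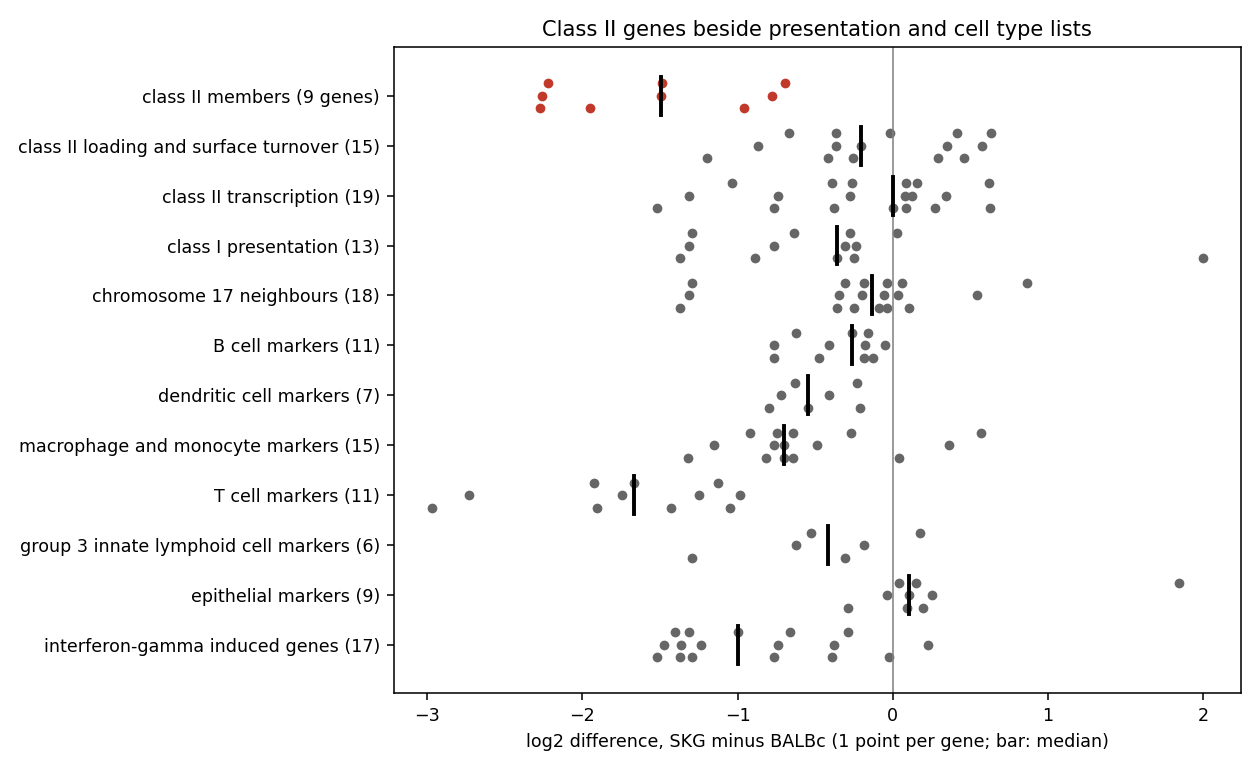
Log2 difference, SKG minus BALBc (x axis), of the 9 class II genes (red, 1 probe per gene) and of the genes tested in each other list (grey; number in brackets), with the median of each list as a black bar. The class II median lies at −1.50, the T cell median at −1.66 and the interferon-gamma median at −0.996, while the other lists lie between −0.70 and 0.11.

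Markers of the cells that carry class II molecules were read beside these values. The B cell list had 11 of 18 genes tested, all 11 lower by the fit, with a median of −0.26 and −0.79 within batch 3. Its summed normalised signal was 548.6 and 972.0 in the BALBc animals of batch 2, 2505 in the BALBc animal of batch 3, and 799.3 to 2498 in SKG. The groups overlapped: BALBc replicate 1 had the lowest B cell sum of all 8 animals and the highest signal of all 8 for H2-Aa, the 3 H2-Ab1 probes, H2-DMa, H2-DMb1 and Ciita, though not for H2-Eb1, Cd74 or H2-DMb2, and its H2-Oa signal was the lowest. BALBc replicate 1 belongs to batch 2, so its standing against the animals of batch 3 cannot be told apart from the gap between batches. The smallest p-values of the B cell list belonged to Pou2af1 (−0.76), Cd79b (−0.77) and Fcrla (−0.62), none called (limma adjusted p 0.466 to 0.647). Among SKG animals the B cell sum was highest in replicate 6 and lowest in replicate 4.

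The dendritic cell list had 7 of 16 genes tested. All 7 were lower by the fit (median −0.55), and 6 were lower within batch 3 (median −0.85). Its sums were 666.4 to 1351 in SKG and 521.4 to 1475 in BALBc, which overlapped. Batf3 (−0.80), Cd86 (−0.55) and Siglech (−0.72) had its smallest p-values (adjusted p 0.458 to 0.561). Its defining genes Flt3 and Zbtb46 were above background on too few arrays to be tested. The macrophage and monocyte list had 15 of 18 genes tested, 12 lower (median −0.70), with sums of 2141 to 3002 in SKG and 2769 to 4432 in BALBc, which overlapped too. There C1qc, a complement chain of tissue macrophages, differed by −1.15 (limma adjusted p = 0.133), Adgre1, a surface antigen of macrophages, by −1.32 (adjusted p = 0.194) and Ms4a7 by −0.92 (adjusted p = 0.199). Of the 11 T cell genes tested of 15, all were lower (median −1.66), and their sums did not overlap (889.9 to 1529 in SKG, 1694 to 4097 in BALBc). Gene by gene, every SKG animal lay below every BALBc animal in 6 of the 11 (5.25% of all probes). Cd6, a receptor of T cells, fell by 2.97 (SE 0.53, limma adjusted p = 0.0405). In the list of group 3 innate lymphoid cells 5 of 6 genes were lower (median −0.42), with sums of 1449 to 2070 in SKG and 2717 to 4076 in BALBc, and Tmem176b (−1.29, adjusted p = 0.100), Tmem176a and Il7r first by p. The epithelial list had 2 of 9 genes lower (median 0.11), with sums of 50450 to 55830 in SKG and 45860 to 51350 in BALBc, and Apoa4 (1.85, adjusted p = 0.0794), Krt8 and Cdh1 first by p. The part of any of these cell types in the class II differences was not tested.

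The genes most like H2-Aa in pattern were ranked by Pearson's r of normalised log2 signal over the 8 arrays, which share the gap between batches. They were Gng11 (0.992), Ifi47 (0.986), LOC621823 (0.981), Fkbp14 (0.979), Sfrs2 (0.978), Gvin1 (0.976), L3mbtl2 (0.975) and Sec11c (0.972). Within the 6 arrays of batch 3 their r was 0.874 to 0.970. All 8 were lower in SKG (−1.44 to −0.48), which the ranking itself brings about, since H2-Aa was lower in SKG on these same arrays. None was called (limma adjusted p 0.111 to 0.409). The arrays of batch 3 are part of those used for the ranking. Since the H2-Aa probe split the BALBc animals, the ranking was repeated for H2-Eb1, a choice made after its values were seen. Among the genes most like H2-Eb1 were Phgdh (0.985), Ccl5 (0.977), LOC100048554 (0.969), Lck (0.964), Il6st (0.962), LOC641240 (0.960) and Rdh1 (0.954), with r of 0.929 to 0.992 within batch 3. No gene named was in both lists. Ccl5 had the largest difference of them at −2.93 (SE 0.61, adjusted p = 0.0678), in a list ranked on the same arrays.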

How the data were processed

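Per the labels' protocols, total RNA of terminal ileum was amplified and hybridised to Illumina MouseRef-8 v2.0 arrays, 1 per mouse. Signals are an intensity per probe that the authors deposited without normalisation; per the file headers they were exported by GenomeStudio 1.9.0. Detection was deposited as a fraction from which the detection p (1 minus it) was taken. Bead counts and bead standard deviations per probe were deposited beside it and served for the bead error. The authors' deposited table of log2 values served as an alternative. limma is named in the submitters' processing notes without a role.

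Signals of 8 arrays were background-corrected from detection p (normexp, offset 16), quantile normalised and log2-transformed (neqc, limma 3.58.1, R 4.3.3, statmod 1.5.0). The filter on dim probes (detection p under 0.05 on 3 or more arrays) left 13775 of 25697. SKG (5 arrays) was compared with BALBc (3 arrays) by limma with batch as a random block (consensus correlation 0.545), two-sided, with Benjamini-Hochberg adjustment over all probes kept and a threshold of 0.05. Because that fit gives the batches unequal weight, its differences need not equal those of the plain group means. Exact permutation tests and correlations used scipy 1.17.1. A gene with several probes is represented by the brightest over the 8 arrays, and its other probes are given too. In the other lists the genes called are named, and otherwise the 3 with the smallest p; as most alike, the 8 genes with the highest r. A few genes that these rules name are not reported here. The members and the lists were chosen with earlier results of these data known. Replicates are separate animals, and the number of arrays, above all the 3 BALBc animals, limits the precision. Alternatives covered the scaling, background correction, offset, filter, batch term, the deposited log2 table, an exact test and the omission of each animal. The 3 arrays of batch 1 were not used. Gene names and promoter sequences came from RefSeq tables of assembly GRCm38.p6.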

Additional observations from a re-analysis of the deposited data

Results flagged for a closer look

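One member held an animal that stood apart within its group. For the H2-DMb2 probe the gap between SKG replicate 5 and the next SKG animal made up 0.818 of the range of the 5 SKG animals, above the limit of 0.71 for 5 values. SKG replicate 5 was the only SKG array on which this probe was above background. It had the highest signal of the SKG animals in 11 of the 12 member probes. A limit of this kind marks about 1 group in 20 by chance. It was applied to the 5 SKG animals of the 12 probes and not to the 3 BALBc animals, which are too few for it.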

How the results depend on the processing

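The fit over the 8 arrays called 44 probes higher and 35 lower in SKG, with 1838 at an unadjusted p under 0.05, and no member. Higher calls numbered 102 under 75th percentile scaling, 26 under cyclic loess, 81 with no filter, 29 with batch as a fixed block and 6 within batch 3. With no batch term 428 probes were higher, 273 lower and 8 of the 12 member probes lower. With the values of the authors' deposited table, higher calls numbered 10 and lower calls 65. With 1 animal left out at a time, higher calls ran from 8 to 2948, lower calls from 18 to 2193 and member calls from 0 to 9, the highest of each without BALBc replicate 3. H2-Oa changed sign with no batch term (0.0569) and as the plain difference of means of the exact test (0.0569), and with 1 animal left out at a time it ran from −1.12 to 0.68, the latter without BALBc replicate 3. The other 11 probes stayed below 0 under every alternative that gave a value. H2-Eb1 ranged from −2.17 to −1.71 (adjusted p 0.00879 to 0.197) and H2-Ab1 probe 2570487 from −6.13 to −0.74 (adjusted p 1.65e-05 to 0.435), probe 1440307 from −4.03 to −1.49 (adjusted p 0.00210 to 0.224) and Ciita from −1.65 to −0.74 (adjusted p 0.0104 to 0.320). Pearson's r with H2-Aa kept its side of the threshold under 75th percentile scaling, cyclic loess and no background correction. Without SKG replicate 6, 7 of the 8 relations no longer passed, with fewer arrays and r of 0.651 to 0.983. No paired analysis was possible because SKG replicates 4 to 8 and BALBc replicates 1 to 3 are separate animals that no label matches to one another. H2-DMb2 and H2-Oa lay near background, which limits both.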

Other observations

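Other genes split the BALBc animals between batches as the H2-Aa probe and the H2-Ab1 probe 2570487 did. They were picked after their values were seen and are given as values only. Psmb9, an immunoproteasome subunit whose gene lies among the class II genes on chromosome 17, gave 9.97 and 9.86 in the BALBc animals of batch 2, 6.26 in that of batch 3 and 5.66 to 6.51 in SKG. Ctss, the cathepsin that degrades Cd74 in antigen-presenting cells, gave 10.58, 10.60 and 6.31 in BALBc and 6.94 to 7.54 in SKG, so that its difference was −0.21 over the 8 arrays and 0.89 within batch 3. Adgre1 gave 8.55, 8.68 and 6.45 in BALBc and 5.37 to 5.92 in SKG. Tap1 and Psmb8, which lie beside Psmb9, did not split in this way: BALBc replicate 3 was the highest animal for both, at 8.86 and 8.65.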
